A study of Mus musculus with 12 samples.

Results

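The receptors for interferons, the Janus kinases (JAKs) attached to them and the inhibitors that feed back on them were followed as 10 genes in B16, an established mouse melanoma cell line. They were taken by symbol from the table of read counts: Ifnar1, Ifnar2, Ifngr1, Ifngr2, Jak1, Jak2, Tyk2, Socs1, Socs3 and Usp18. These were 10 of 23336 symbols in the table, and all 10 were among the 11561 genes that passed a filter on low counts. Socs1 passed only through the libraries with interferon: 0 of 3 vehicle libraries of either genotype reached the minimum of the filter, against 3 of 3 with interferon in each. Usp18 reached it in 1 of 3 vehicle libraries of each genotype, and the other 8 genes in all 12 libraries.

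RNA had been sequenced in 12 libraries, 3 in each of 4 groups. Control cells carried a guide RNA without a target (control sgRNA 5) and Adar-null cells a guide against Adar (Adar sgRNA 1), the gene of an enzyme that edits adenosines in double-stranded RNA. Cas9 and the guide had been delivered transiently to both, and the cells then subcloned. Each genotype was grown with vehicle (PBS with albumin) or with interferon-beta (IFNb) at 1000 U/mL, for 36 h. Each genotype thus rests on 1 guide and its subcloned cells, and a difference between genotypes cannot be told apart from a difference between subclones. Whether a group's 3 libraries stem from different cultures is not stated, so p-values cover only library-to-library spread, which could be purely technical.

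Type I interferons such as IFNb bind a receptor of the chains IFNAR1 and IFNAR2, which hold the kinases TYK2 and JAK1. Interferon-gamma binds IFNGR1 and IFNGR2, which hold JAK1 and JAK2. The kinases phosphorylate STAT proteins. The factor ISGF3, which contains IRF9, binds the interferon-stimulated response element (ISRE), whereas STAT dimers bind the gamma-activated site (GAS). USP18 sits on IFNAR2 and blocks further signalling, besides removing the ubiquitin-like protein ISG15 from its targets. SOCS1 and SOCS3 bind receptors and JAKs and stop the kinases, SOCS3 mainly at receptors that use the gp130 chain.

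The 250 bases before the RefSeq start site (GRCm38.p6) were read for 9 of the 10 genes (all but Usp18) and searched on both strands for the ISRE letters, GAAA and GAAA with any 2 bases between them, and for the GAS letters, TTCNNNGAA, which read the same on both strands. The Socs1 window is shown because it was the only 1 of the 9 windows read with an ISRE match. It lies at chr16:10785537-10785786 on the minus strand, and its capitals mark 2 matches, GAAAGAGAAA from base 83 to base 74 before the start and GAAACCGAAA from base 77 to base 68, which overlap. The stretches of Socs3 (chr11:117969501-117969530, minus strand) and Ifnar2 (chr16:91372559-91372588, plus strand) hold the only GAS matches, in capitals. The Socs3 match lies 154 to 146 bases before the RefSeq start, inside a longer Socs3 gene model of GENCODE M21, and the Ifnar2 match 214 to 206 bases before the start.
Socs1: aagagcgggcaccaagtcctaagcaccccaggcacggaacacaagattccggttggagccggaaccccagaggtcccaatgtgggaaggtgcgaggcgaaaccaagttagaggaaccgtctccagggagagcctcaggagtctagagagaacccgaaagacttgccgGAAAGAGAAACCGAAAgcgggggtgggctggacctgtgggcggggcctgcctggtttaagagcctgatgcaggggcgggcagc
Socs3: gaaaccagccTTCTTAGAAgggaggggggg
Ifnar2: tgccaaggccTTCCTGGAAgaagagagtac
The ISRE letters occurred in 3.46% of 27025 gene windows of this length and in 8 of 22 windows of a reference list of interferon-stimulated genes. The GAS letters occurred in 8.13% of all windows and in 4 of those 22. A match describes letters only and is not evidence of binding.

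The libraries held 5375649 to 7153480 counts. Values are counts scaled to a common library size (CPM) after TMM, changes are log2 fold changes ± standard error, and a gene was called where edgeR's quasi-likelihood test over 11561 genes gave an adjusted p (Benjamini-Hochberg) under 0.05. Adar RNA, the target of the guide, stood at 70.3 to 74.3 CPM in control and 56.3 to 65.6 CPM in Adar-null libraries with vehicle, and at 377 to 392 and 384 to 422 CPM with IFNb. A guide need not remove the RNA, so these counts do not check the deletion. All 10 melanocyte markers had counts in every group. They summed to 16300 to 17100 CPM in control libraries with vehicle and 14000 to 14400 CPM with IFNb, and to 15900 to 16100 CPM in Adar-null libraries with vehicle and 10700 to 11400 CPM with IFNb, with no overlap between any groups. On IFNb 9 of the 10 markers fell in Adar-null cells, where 35.7% of all genes tested fell. In control cells 3 fell and 2 rose (26.5% and 26.5% of all genes). With vehicle, 1 of the 10 was called higher and 2 lower in Adar-null than in control cells (2.47% and 4.05% of all genes). Of these, Oca2 was lower, at 9.31 to 10.6 CPM in control and 0.713 to 1.03 CPM in Adar-null libraries (-3.52 ± 0.39, adjusted p = 3.4e-18). Oca2 passed the filter on low counts only through control libraries, so its adjusted p is no independent evidence. Oca2 had 172 counts in control and 1 in Adar-null libraries with IFNb. Leukocyte markers summed to at most 5.73 CPM, epithelial to at most 4.28 CPM and fibroblast to at most 24.7 CPM. Endothelial markers summed to 10.8 to 17.0 CPM in Adar-null libraries with IFNb, where 5 of 6 had counts and Vwf made up 12.7 CPM on average, and to at most 4.09 CPM elsewhere. The ribosomal RNA precursor Rn45s took 21.1% to 22.9% of counts with vehicle and 24.9% to 28.5% with IFNb. With Rn45s left out of the library sizes, the calls of the 10 followed genes were the same in every comparison. Otherwise the part of these shifts in the results was not tested.

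With vehicle, no difference between the genotypes was called in the signalling chain. None of the 10 genes was called between Adar-null and control cells with vehicle by edgeR, where 6.51% of all genes tested were called (2.47% higher and 4.05% lower). DESeq2 and limma-voom also called 0, and 1 of the 10, Jak1, passed 0.05 before adjustment (-0.12 ± 0.05, adjusted p = 0.162). The libraries of the genotypes did not overlap for 1 of the 10, Socs3 (22.3% of all genes), where the difference was 0.15 ± 0.18 (adjusted p = 0.710). For the 7 receptor and kinase genes the differences ran from -0.15 for Ifnar2 (95% interval -0.34 to 0.04) to -0.01 for Ifngr1 (-0.25 to 0.23). Socs1 had 5 counts in the 3 control and 10 in the 3 Adar-null libraries, a ratio of 1.85 with an exact 95% counting interval of 0.576 to 6.90. Differences within that interval were not resolved at this depth.

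With IFNb the response of 4 of the 10 genes differed between the genotypes. In Adar-null cells Ifnar1 and Socs3 fell and Usp18 rose further than in control cells, whereas Jak2 fell in control cells and its change in Adar-null cells was not called. In control cells 5 of the 10 genes were called on IFNb, against 53.0% of all genes tested, 4 of them higher (26.5% of all genes) and 1 lower (26.5%). In Adar-null cells 6 of 10 were called, against 72.3%, 4 of them higher (36.6%) and 2 lower (35.7%). With library size alone in place of TMM these splits shifted to 2 higher and 2 lower in control cells, with 3 of the 5 calls shared, and 2 higher and 4 lower in Adar-null cells, with 4 of the 6 shared. The difference of the responses was called for 4 of 10, the same genes under both scalings, against 59.3%, with 2 higher (28.6%) and 2 lower (30.7%). Under IFNb, 6 of 10 differed between genotypes, against 72.6%, 3 of them higher (36.4%) and 3 lower (36.2%) in Adar-null cells. Groups did not overlap for 6 of the 10 genes in each of these pairs: the response of control cells (57.6% of all genes), that of Adar-null cells (73.7%) and the genotypes under IFNb (74.0%). The members' share called was thus no higher than that of all genes in any of these comparisons. Comparisons below share libraries, so their values are given side by side.

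**Figure D1:**
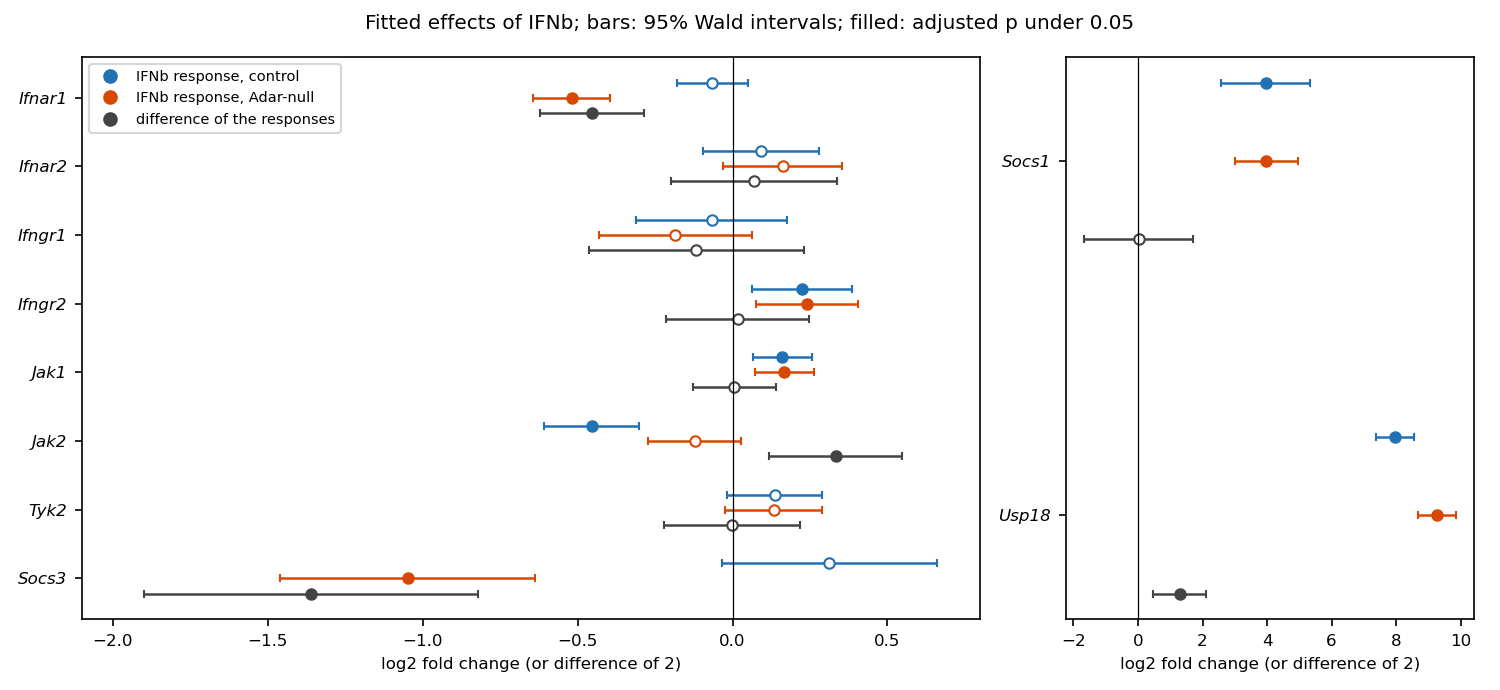
Fitted log2 fold changes on IFNb against vehicle in control cells (blue) and Adar-null cells (orange) and the difference of these responses (dark grey), on the x axis, for each gene on the y axis, with 95% Wald intervals. Socs1 and Usp18 have an axis of their own, and filled points were called. The Ifnar1, Jak2, Socs3 and Usp18 differences are filled, and the other 6 are open.

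The ligand side was almost silent without interferon. Of 17 interferon genes counted, the sum was 0 counts in control and 9 counts in Adar-null libraries with vehicle, 8 counts in control libraries with IFNb and 122 in Adar-null libraries with IFNb. Ifnb1, which encodes IFNb itself, made up 97 of the 122, with 30 to 34 counts per library, and had 0 in all 9 other libraries. A sum of 0 over a group allows up to 3 counts, or 0.157 to 0.173 CPM depending on the group, so Ifnb1 at 5.34 ± 0.362 CPM (SD, n = 3) stood above that floor. Il6, a ligand of gp130 receptors, likewise had 81 counts in Adar-null libraries with IFNb and 0 elsewhere. Lif, another such ligand, had 97 counts there, 19 in control libraries with IFNb, 4 in control and 0 in Adar-null libraries with vehicle. These cytokines thus appeared in the same libraries as the Ifnar1 and Socs3 values described next, and any link was not tested.

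Ifnar1, the chain that holds TYK2, lies at chr16:91485238-91507441 on the plus strand (GENCODE M21, GRCm38). In control cells Ifnar1 stood at 110.3, 109.8 and 96.8 CPM with vehicle and at 105, 98.1 and 100.6 CPM with IFNb. In Adar-null cells it stood at 103, 103 and 93.1 CPM with vehicle and at 75.8, 65.7 and 68.7 CPM with IFNb. The 3 Adar-null libraries with IFNb were the lowest of the 12 and overlapped no other group, while the other 3 groups overlapped. The summed melanocyte markers were lowest in the same 3 libraries. The mean fell from 99.8 ± 5.81 to 70.0 ± 5.17 CPM (SD, n = 3) in Adar-null cells, a log2 change of -0.52 ± 0.06 (adjusted p = 1.1e-12), or 1.43-fold down. In control cells the change was -0.07 ± 0.06 (adjusted p = 0.358), and with library size alone it was a called fall (-0.14, adjusted p = 0.0442). The responses differed by -0.45 ± 0.09 (adjusted p = 2.4e-06), and over 21 alternative settings this difference ran from -0.52 to -0.40. In bulk RNA a loss of transcripts per cell and a change in the cells present cannot be told apart.

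Ifnar2 encodes the chain that holds JAK1 and docks USP18 (chr16:91372783-91405589, plus strand). Its libraries ran from 30.5 to 33.2 CPM in control cells with vehicle, 32.6 to 35.8 CPM with IFNb, 26.2 to 31.2 CPM in Adar-null cells with vehicle and 29.6 to 34.3 CPM with IFNb. All 4 pairs of groups compared overlapped and no comparison was called, in contrast to Ifnar1. The response was 0.09 ± 0.10 in control and 0.16 ± 0.10 in Adar-null cells (adjusted p = 0.432 and 0.130), and their difference was 0.07 with a 95% interval of -0.20 to 0.34. A read-through gene model, Gm21970, shares 315 bp with Ifnar2 exons, 9.9% of their length, and how reads there were counted is not given in the sources used here.

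Of the chains for interferon-gamma, which was not added in these libraries, Ifngr1 binds the ligand (chr10:19591949-19610229, plus strand). Ifngr1 was called in no comparison, with means of 18.6 ± 0.786 and 17.7 ± 1.40 CPM in control cells and 18.5 ± 1.56 and 16.2 ± 1.38 CPM in Adar-null cells (vehicle, then IFNb; SD, n = 3). The Adar-null libraries did not overlap between treatments, at 17.5 to 20.3 and 14.6 to 17.1 CPM, yet the change of -0.18 ± 0.13 missed the threshold (adjusted p = 0.179). Scaling by library size alone moved it past the threshold (-0.28, adjusted p = 0.0419).

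Ifngr2 encodes the partner chain (chr16:91547072-91565623, plus strand). In control cells Ifngr2 stood at 45.7, 45.9 and 43.3 CPM with vehicle and at 60.7, 47.1 and 51.0 CPM with IFNb. In Adar-null cells it stood at 38.03, 41.1 and 48.9 CPM with vehicle and at 53.6, 48.9 and 48.7 CPM with IFNb. The control groups did not overlap, the Adar-null groups did, and replicate 1 was the highest library in both IFNb groups. On the log2 scale Ifngr2 RNA increased with IFNb by 0.22 ± 0.08 in control cells (adjusted p = 0.0173), 1.17-fold, and by 0.24 ± 0.08 in Adar-null cells (adjusted p = 0.00783), 1.18-fold. Here the responses differed by 0.02 with a 95% interval of -0.21 to 0.25. Both calls were lost without the highest IFNb library, replicate 1 (adjusted p = 0.258 in control and 0.0596 in Adar-null cells). They were also lost without replicate 3 of the control vehicle group (0.0674), without replicate 1 of the Adar-null vehicle group (0.0954), with library size alone (0.135 and 0.113) and, in control cells, with DESeq2 (0.0612).

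**Figure D2:**
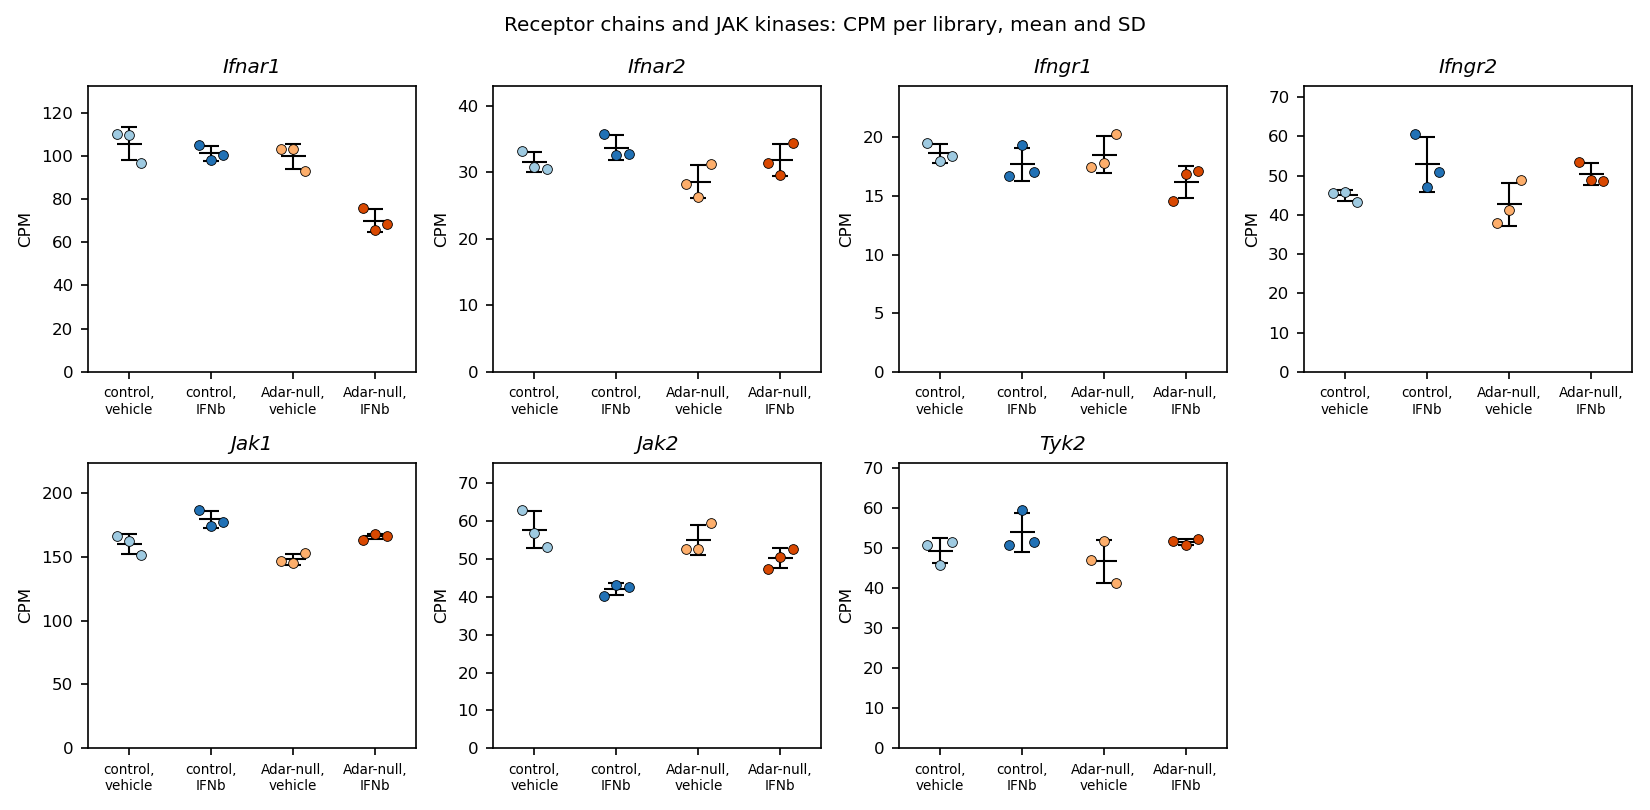
CPM (y axis, from 0) of the 4 receptor and 3 kinase genes in each of the 12 libraries (points) by group (x axis), with the mean and SD of 3 libraries. Ifnar1 in Adar-null libraries with IFNb sits between 65.7 and 75.8 CPM, below all other libraries, and Jak2 in control libraries with IFNb between 40.2 and 43.2 CPM, also below all others.

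Jak1, the kinase shared by both receptors, had the highest level of the kinases in CPM per kilobase of exon (chr4:101152367-101265282, minus strand). In control cells Jak1 stood at 166, 163 and 152 CPM with vehicle and at 187, 174 and 177 CPM with IFNb. In Adar-null cells it stood at 147, 145 and 153 CPM with vehicle and at 163, 168 and 167 CPM with IFNb. No IFNb library overlapped the vehicle libraries of its genotype. Jak1 rose by 0.16 ± 0.05 on the log2 scale in control cells (adjusted p = 0.00306) and by 0.17 ± 0.05 in Adar-null cells (adjusted p = 0.00156), 1.12-fold in each, with a difference of 0.01 and a 95% interval of -0.13 to 0.14. Both calls were lost with library size alone (adjusted p = 0.141 and 0.169). Under IFNb the Adar-null cells had slightly less Jak1 RNA than control cells (-0.11 ± 0.05, adjusted p = 0.0349), a call lost under RLE size factors (0.0545), upper-quartile scaling (0.170) and DESeq2 (0.101), and without replicate 1 of either IFNb group (0.0685 without the Adar-null and 0.172 without the control library).

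Jak2, the kinase on IFNGR2, moved the other way (chr19:29251828-29313080, plus strand). In control cells Jak2 stood at 62.9, 56.9 and 53.3 CPM with vehicle and at 40.2, 43.2 and 42.6 CPM with IFNb. In Adar-null cells it stood at 52.8, 52.6 and 59.5 CPM with vehicle and at 47.4, 50.7 and 52.7 CPM with IFNb. The control libraries with IFNb were the lowest 3 of the 12 and overlapped no other group, while the Adar-null groups overlapped each other. Jak2 fell by 0.45 ± 0.08 on the log2 scale in control cells (adjusted p = 3.3e-07), 1.37-fold down, and the change in Adar-null cells was -0.12 ± 0.08 (adjusted p = 0.143, and 0.0110 with library size alone). The responses differed by 0.33 ± 0.11 (adjusted p = 0.00617), leaving 0.26 ± 0.08 more in Adar-null than in control cells under IFNb (adjusted p = 0.00259).

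Tyk2, the kinase on IFNAR1, was called in no comparison (chr9:21104068-21131243, minus strand). Its means were 49.4 ± 3.07 and 54.0 ± 4.82 CPM in control cells and 46.7 ± 5.31 and 51.6 ± 0.707 CPM in Adar-null cells (vehicle, then IFNb; SD, n = 3), and the ranges overlapped between the groups compared. The response was 0.14 ± 0.08 in control and 0.13 ± 0.08 in Adar-null cells (adjusted p = 0.139 and 0.125). Without replicate 2 of the Adar-null vehicle group, the response of Adar-null cells was called (0.22, adjusted p = 0.0262). The fall of Ifnar1 in Adar-null cells was thus not seen for the kinase that its product holds, though the difference between the 2 genes was not tested.

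Usp18, the receptor inhibitor and ISG15 protease (chr6:121245906-121270917, plus strand), went from a few counts per library to the highest CPM per kilobase of the 10 genes. With vehicle it stood at 0.703, 1.32 and 1.99 CPM in control libraries and at 0.685, 1.93 and 1.07 CPM in Adar-null libraries, from 4 to 14 counts each. With IFNb it stood at 342, 337 and 334 CPM in control libraries and at 768, 786 and 843 CPM in Adar-null libraries. No IFNb library overlapped a vehicle library or an IFNb library of the other genotype. Under IFNb, Usp18 was 2.37-fold higher in Adar-null cells (1.24 ± 0.04, adjusted p = 1.8e-47), a ratio that does not rest on the sparse vehicle counts. The ratio of IFNb to vehicle counts was 253.6 in control cells (exact 95% counting interval 169 to 400.4) and 623 in Adar-null cells (419 to 973). The responses differed by 1.29 ± 0.42 (adjusted p = 0.00541), and without replicate 3 of the control vehicle group by 0.92, which was not called (adjusted p = 0.132). An antisense gene model, Gm44148, shares 124 bp with Usp18 exons, 7.0% of their length.

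All 31 reference interferon-stimulated genes rose with IFNb in both genotypes. By fitted value, the response of Usp18 was above that of 20 of them in control cells and of 21 in Adar-null cells. Some of the 31 passed the filter on low counts only through libraries with IFNb, such as Oasl2 with 0 counts in every vehicle library. The direction of their change was thus fixed by the filter and its fitted size is loosely set, so these ranks are a description only. The difference between genotypes under IFNb was larger for Usp18 than for 25 of the 31, whose median was 0.63. Of these 31, 26 were higher and 5 lower in Adar-null cells under IFNb, against 36.4% and 36.2% of all genes. The list was drawn up with earlier results of these data known, so its direction is no independent support. By fitted value Usp18 thus stood above most of the reference genes in both genotypes, and no test set it apart from them.

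Socs1, which carries the ISRE letters printed above, was induced from almost no counts (chr16:10782240-10785536, minus strand). With vehicle it had 0, 2 and 3 counts in control libraries and 3, 4 and 3 in Adar-null libraries. With IFNb it had 27, 38 and 26 counts in control libraries and 53, 61 and 45 in Adar-null libraries. The groups with IFNb overlapped neither the vehicle groups nor each other, at 4.03 to 5.44 CPM in control and 7.12 to 10.0 CPM in Adar-null cells. Socs1 RNA rose by a count ratio of 16.5 (exact 95% counting interval 6.82 to 52.1) in control and 16.3 (8.62 to 34.6) in Adar-null cells, and the fitted responses were 3.95 ± 0.70 and 3.98 ± 0.50 (adjusted p = 9.7e-13 and 1.5e-19). Their difference was 0.03 with a wide 95% interval of -1.66 to 1.71. Under IFNb, Socs1 was 1.83-fold higher in Adar-null than in control cells (0.87 ± 0.22, adjusted p = 2.4e-04). By fitted value its induction was smaller than that of 28 of the 31 reference genes in control cells and of 30 in Adar-null cells. The limit given above for such ranks holds here too.

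Socs3, the inhibitor of gp130-type receptors, did not follow Socs1 and Usp18 (chr11:117966079-117970047, minus strand). In control cells Socs3 stood at 8.61, 8.08 and 8.13 CPM with vehicle and at 10.3, 11.2 and 9.30 CPM with IFNb. In Adar-null cells it stood at 8.74, 9.53 and 9.27 CPM with vehicle and at 4.74, 5.71 and 2.85 CPM with IFNb. The Adar-null libraries with IFNb were the lowest of the 12, with 18 to 38 counts each, and no 2 groups compared overlapped. The melanocyte marker sums were lowest in the same 3 libraries. Socs3 fell by 1.05 ± 0.21 on the log2 scale in Adar-null cells (adjusted p = 2.7e-06), 2.07-fold down. In control cells the change was 0.31 ± 0.18 (adjusted p = 0.127), although its groups did not overlap. The responses differed by -1.36 ± 0.27 (adjusted p = 6.2e-06), with -1.63 to -1.13 over 21 alternative settings, and under IFNb Socs3 was 2.31-fold lower in Adar-null than in control cells (-1.21 ± 0.21, adjusted p = 4.6e-08).

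**Figure D3:**
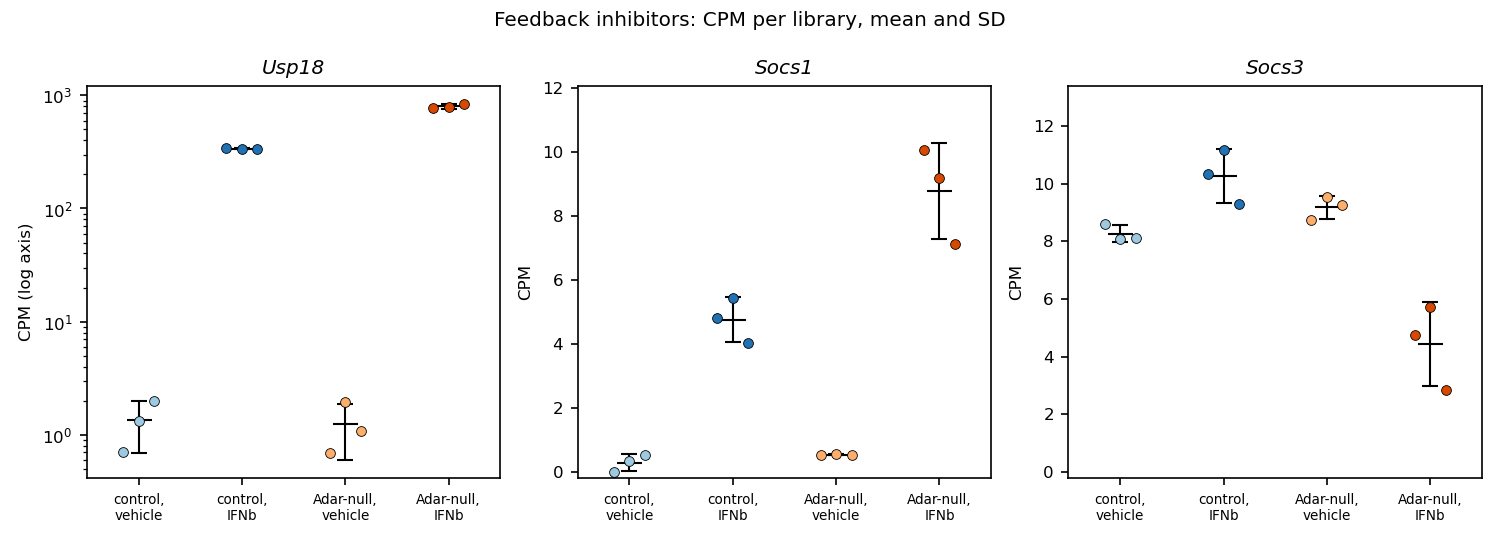
CPM of Usp18 (y axis, log scale), Socs1 and Socs3 (y axes, linear) in each of the 12 libraries (points) by group (x axis), with the mean and SD of 3 libraries. Usp18 and Socs1 are highest in Adar-null libraries with IFNb, up to 843 and 10.0 CPM, where Socs3 is lowest, down to 2.85 CPM.

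To compare levels between genes, CPM was divided by the exon length of the GENCODE M21 models. In control cells with vehicle the order of CPM per kilobase was Jak1 (32.6 ± 1.56), Ifnar1 (27.0 ± 1.96), Ifngr2 (12.1 ± 0.379), Jak2 (11.5 ± 0.968), Ifnar2 (9.93 ± 0.463), Tyk2 (8.88 ± 0.551), Ifngr1 (8.82 ± 0.370), Socs3 (3.24 ± 0.115), Usp18 (0.754 ± 0.362) and Socs1 (0.0999 ± 0.0939; SD, n = 3). Library ranges of the neighbours Ifngr2 and Jak2 overlapped, as did those of Tyk2 and Ifngr1, and the others did not. With IFNb, Usp18 led at 191 ± 2.30 CPM per kilobase in control and 451 ± 22.1 in Adar-null cells, above Jak1 at 36.6 ± 1.32 and 33.8 ± 0.467. Ifnar1 kept its place behind Jak1 in Adar-null cells with IFNb, at 17.9 ± 1.32 CPM per kilobase. Socs3 stood above Socs1 in control cells with IFNb (4.02 ± 0.365 against 1.64 ± 0.242 CPM per kilobase) and below it in Adar-null cells with IFNb (1.74 ± 0.571 against 3.02 ± 0.516). The Socs1 level depends on the model: with the RefSeq span of 1729 bp in place of 2908 bp it was 2.75 ± 0.407 and 5.08 ± 0.867 CPM per kilobase with IFNb, and the order of Socs3 and Socs1 was the same.

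**Figure D4:**
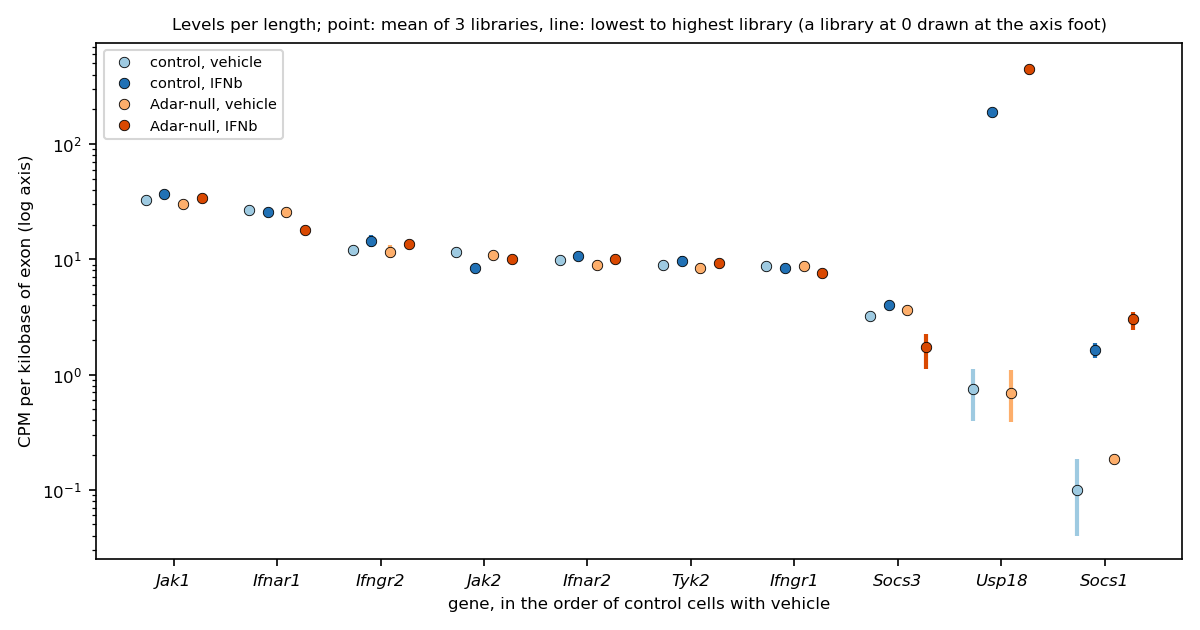
CPM per kilobase of exon (y axis, log scale) of the 10 genes in the 4 groups, as the mean of 3 libraries (points) and the range from the lowest to the highest library (lines). Genes are ordered on the x axis by the level in control cells with vehicle, from Jak1 at 32.6 to Socs1 at 0.0999, and Usp18 with IFNb lies above all others at 191 and 451.

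Of the 10 genes, 3 receptor chains lie in 1 cluster on chromosome 16, in the order Ifnar2, Il10rb, Ifnar1 and Ifngr2, with starts 33.4, 112.5 and 174.3 kb from that of Ifnar2. Il10rb encodes the second chain of the receptors for interleukin-10 and interferon-lambda. It rose in control cells (0.38 ± 0.07, adjusted p = 3.9e-07) and fell in Adar-null cells (-1.07 ± 0.08, adjusted p = 6.4e-24), with a difference of -1.45 ± 0.10 (adjusted p = 1.6e-24). Its mean was 77.5 ± 5.93 and 100.7 ± 8.79 CPM in control cells and 78.7 ± 3.23 and 37.4 ± 4.48 CPM in Adar-null cells (vehicle, then IFNb; SD, n = 3). The read-through model Gm21970 shares 569 bp with Il10rb exons, 30.8% of their length. The calls of the 4 receptor chains of the cluster thus differed, although no test compared the genes with each other. Ifnar1 and Il10rb fell in Adar-null cells and Ifnar2 was not called. Ifngr2 rose in both genotypes, with calls that were lost with library size alone and without single libraries.

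Of the 11 genes tested in the cluster and its neighbourhood, 4 rose and 2 fell in control cells, and 5 rose and 4 fell in Adar-null cells, with medians of 0.09 and 0.16 against -0.01 and 0.01 for all genes. Of all genes, 26.5% rose and 26.5% fell in control cells, while 36.6% rose and 35.7% fell in Adar-null cells; these shares are the background for the lists that follow too. The largest difference of responses was at Cryzl1, a quinone-reductase-like gene, which fell in control cells (-1.49 ± 0.09, adjusted p = 4.9e-33) and rose in Adar-null cells (0.42 ± 0.07, adjusted p = 1.1e-08). Tmem50b, the neighbour of Ifngr2, fell in Adar-null cells (-1.08 ± 0.19, adjusted p = 2.1e-07), while Gart, an enzyme of purine synthesis, rose most in control cells (0.83 ± 0.06, adjusted p = 2.2e-27). Dnajc28, a DnaJ family gene, had the largest called rise of the cluster in Adar-null cells (0.49 ± 0.21, adjusted p = 0.0293).

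**Figure D5:**
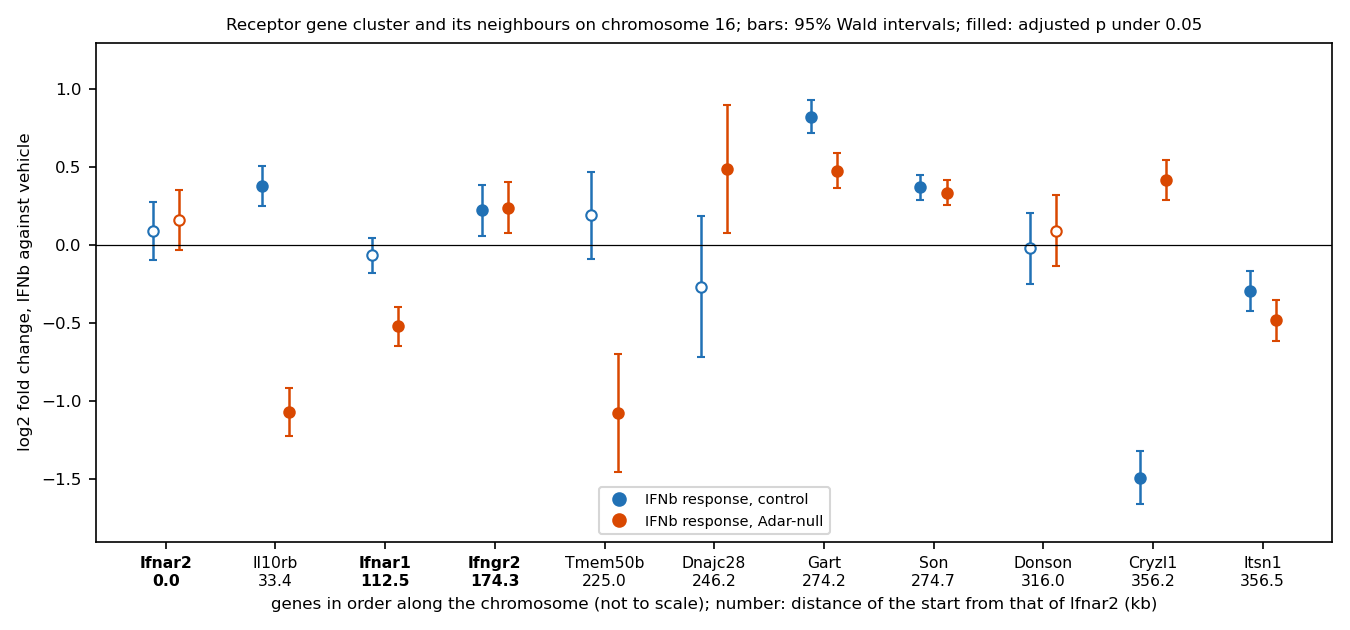
Log2 fold change on IFNb against vehicle (y axis) in control (blue) and Adar-null cells (orange) for the receptor genes and neighbours in their order along chromosome 16 (x axis, not to scale; the number is the distance of each start from that of Ifnar2 in kb), with 95% Wald intervals and filled points where called. Il10rb lies at 0.38 in control and -1.07 in Adar-null cells, and Ifnar1 at -0.07 and -0.52.

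Downstream of the receptors, 5 of the 7 tested genes for STATs and IRF9 rose in control cells and none fell, while in Adar-null cells 5 rose and 2 fell. Over all genes 53.0% were called in control and 72.3% in Adar-null cells. The medians of the list were 0.65 and 1.11. Irf9, the DNA-binding part of ISGF3, rose from 2.84 ± 0.574 to 101.2 ± 3.97 CPM (SD, n = 3) in control cells, the largest rise of the list there. Stat2 rose most in Adar-null cells, from 7.66 ± 0.630 to 336 ± 4.61 CPM (5.44 ± 0.12, adjusted p = 8.2e-90), and its response exceeded that of control cells by 1.01 ± 0.19 (adjusted p = 4.8e-06). Stat5b fell in Adar-null cells (-0.34 ± 0.08, adjusted p = 1.4e-04). The difference of responses was called higher for 4 of 7 and lower for 0 (28.6% and 30.7% of all genes).

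Of 15 other tested genes for receptors and kinases of the JAK family, 7 rose and 1 fell in control cells, and 5 rose and 4 fell in Adar-null cells, with medians of 0.32 and 0.15. The 8 and 9 called of 15 stand against 53.0% and 72.3% of all genes. Il12rb1, a chain of the interleukin-12 receptor, had the largest rise in both, from 5 to 69 counts in control and from 5 to 33 counts in Adar-null libraries. No vehicle library held more than 3 counts of Il12rb1, so it passed the filter on low counts only through libraries with IFNb. Il6st, the gp130 chain, fell in control cells (-0.30 ± 0.06, adjusted p = 6.4e-06), and Il12rb2 fell most in Adar-null cells (-1.30 ± 0.37, adjusted p = 5.0e-04). Crlf2, a receptor chain for thymic stromal lymphopoietin, showed the largest difference upward (2.12 ± 0.47, adjusted p = 2.7e-05).

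Among 16 other tested inhibitors, 4 rose and 3 fell in control cells, and 6 rose and 3 fell in Adar-null cells, with medians of -0.06 and 0.20. The 7 and 9 called of 16 stand against 53.0% and 72.3% of all genes. Isg15, the substrate that USP18 removes from proteins, rose most, from 0.810 ± 0.101 to 305 ± 6.57 CPM in control and from 0.983 ± 0.351 to 473 ± 25.7 CPM in Adar-null cells (SD, n = 3). Isg15 too passed the filter on low counts only through libraries with IFNb. Ptpn6, the gene of the phosphatase SHP-1, fell in Adar-null cells (-1.21 ± 0.21, adjusted p = 8.3e-08), and the responses differed by -1.87 ± 0.26 (adjusted p = 1.6e-10). Ptpn2, the gene of a phosphatase that acts on JAKs and STATs, differed upward (0.65 ± 0.13, adjusted p = 9.4e-06). Socs4, another member of the SOCS family, fell in control cells (-0.38 ± 0.10, adjusted p = 0.00104).

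Of 16 tested genes for receptor turnover and adaptors, 2 rose and 6 fell in control cells, and 9 rose and 2 fell in Adar-null cells, with medians of -0.06 and 0.28. The 8 and 11 called of 16 stand against the same 53.0% and 72.3%. The difference of responses was called higher for 11 and lower for 2, against 28.6% and 30.7% of all genes. Stam, an endosomal sorting adaptor, went from 50.3 ± 2.43 to 141.5 ± 2.18 CPM in Adar-null cells and from 54.1 ± 2.61 to 46.3 ± 0.617 CPM in control cells (SD, n = 3), a difference of 1.72 ± 0.10 (adjusted p = 1.4e-32). Skp1a, a subunit of the ubiquitin ligase that acts on IFNAR1, fell in Adar-null cells (-0.76 ± 0.06, adjusted p = 2.4e-21). Csnk1a1, a kinase that can phosphorylate IFNAR1, fell most in control cells (-0.59 ± 0.05, adjusted p = 1.1e-21), and Prmt5, an arginine methyltransferase, rose there (0.45 ± 0.07, adjusted p = 5.1e-08). Over all genes tested, 3067 rose and 3066 fell in control cells and 4232 rose and 4132 fell in Adar-null cells. With library size alone the split in control cells was 2469 higher and 3796 lower.

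The genes with the most similar profiles were ranked by Pearson's r of log2 CPM over the 12 libraries, among 9369 or 9370 genes. This is a description only, since the 12 libraries share 4 combinations of genotype and treatment and their library depth. Usp18 was closest to Gbp3 (r = 0.998), Nmi and Cmpk2, of which Cmpk2 was not among the 3 closest with a smaller prior count. Ifnar1 was closest to Slmo2 (r = 0.988), Hmgn3 and Mitf, the last a melanocyte marker. Socs3 was closest to Zfp618 (r = 0.962), Jak1 to Cbfb (r = 0.968) and Jak2 to Sgcb (r = 0.978). For Socs1 the closest was Ccdc55 (r = 0.988), and with a smaller prior count only 1 of its 3 closest genes was the same. For Ifnar2, Ifngr1, Ifngr2 and Tyk2 the closest genes reached r of 0.898, 0.871, 0.881 and 0.866 (Ppp1r13b, Nubp1, Fig4 and Tbc1d8).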

How the data were processed

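Total RNA of 12 B16 libraries (4 groups of 3) was freed of ribosomal RNA, turned into strand-marking libraries and sequenced as 37 bp read pairs, per the labels' protocols. The submitters' processing notes name bcl2fastq 2.19.1, Trimmomatic 0.33, Bowtie2 2.2.4, HTSeq 0.6.1p1, DESeq2 and the mm10 build; for step order, annotation and the strand setting, nothing is given in the sources used here. Deposited values are raw counts per gene symbol, not normalised by the authors, with 5375649 to 7153480 counts per library. Short reads from overlapping models can be divided in unstated ways.

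From these counts, edgeR 4.0.16 (R 4.3.3) was run over all 12 libraries with 1 term per group: filterByExpr by group (minimum count 10), TMM, robust glmQLFit and glmQLFTest, Benjamini-Hochberg adjustment over 11561 genes in each of 5 comparisons, threshold 0.05. Standard errors are Wald errors, not below counting error. CPM use TMM library sizes. Exact counting intervals and floors (3 counts per group) cover counting error only. The intervals of fitted log2 changes are Wald intervals built from the standard errors. Replicate pairs gave 1.47 to 3.23 for chi-square divided by its degrees of freedom, so none agreed within sampling noise. Alternatives were other scalings, filters, DESeq2 1.42.0, limma-voom (limma 3.58.1), 2-group fits, a replicate block and leaving out each library. The fit was tested on simulated data in which 200 genes, none at low counts, were changed in the Adar-null group with IFNb. Those are fewer genes than were called in any comparison here. That run thus cannot vouch for the scaling of these libraries or for genes with few counts. Positions and exon lengths come from GENCODE M21 basic (GRCm38), upstream sequences from RefSeq (GRCm38.p6). The 10 genes and the gene lists were chosen with earlier results of these data known. Named genes are the 10, the 3 with the most similar profile to each (mean log2 CPM at least 3, prior count 2), and the largest called rise and fall of each list in the IFNb responses and their difference. Genes beyond these were not chosen by their values, except the ligands with counts and Vwf. The vehicle difference of Oca2 was also picked by its value.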

Additional observations from a re-analysis of the deposited data

Results flagged for a closer look

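The response to IFNb differed between Adar-null and control cells, by the test of the difference itself, for 4 of the 10 genes. For Ifnar1 the response of Adar-null cells was lower by a log2 value of -0.45, with a fall in Adar-null cells that was called and a change in control cells that was not, except with library size alone (-0.14, adjusted p = 0.0442). For Socs3 the difference was -1.36, and the fitted changes had opposite signs, of which only the fall in Adar-null cells was called. For Jak2 the difference was 0.33, the fall being called in control cells and, with library size alone, also in Adar-null cells (-0.21, adjusted p = 0.0110). Usp18 rose in both genotypes, and its response was larger in Adar-null cells by 1.29, a value that rests on 4 to 14 counts per vehicle library. All 4 stand among 59.3% of genes tested whose responses differed.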

How the results depend on the processing

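The number of the 10 genes called stayed within 1.5 times in every comparison and alternative run: 0 with vehicle, 5 to 6 between genotypes under IFNb, 4 to 5 for the response of control cells, 5 to 7 for that of Adar-null cells and 3 to 4 for the difference of responses. The genes behind these numbers changed with library size alone: the response of control cells kept 3 of its 5 calls (from 4 higher and 1 lower to 2 and 2), and that of Adar-null cells 4 of its 6 (from 4 higher and 2 lower to 2 and 4). Jak1 and Ifngr2 were lost in both, Ifnar1 was gained in control cells and Ifngr1 and Jak2 in Adar-null cells. Of all genes tested, 753 were called between genotypes with vehicle, but 322 with DESeq2 (109 higher and 213 lower), and 308 to 801 leaving out 1 library, with 308 without replicate 2 of the control vehicle group, 393 and 463 without replicates 1 and 2 of the Adar-null vehicle group. The cause was not tested. The alternative with only the groups compared was not run for the difference of responses, which needs all 4.

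Differences that changed sign were all uncalled in both settings. For the difference of responses these were Tyk2 with upper-quartile scaling (0.0272), DESeq2 (0.0062), limma-voom (0.0016) and the replicate block (0.0018), Jak1 with library size alone (-0.0094) and without Rn45s in the library sizes (-0.0001), and Socs1 with DESeq2 (-0.0079) and limma-voom (-0.26). Leaving out 1 library, it ran from -0.0097 to 0.132 for Ifnar2, -0.0862 to 0.117 for Ifngr2, -0.0356 to 0.0425 for Jak1, -0.0828 to 0.0852 for Tyk2 and -0.677 to 0.568 for Socs1. With vehicle the difference between genotypes ran from -0.0765 to 0.0246 for Ifngr1, -0.595 to 0.324 for Usp18 and -0.157 to 0.0101 for Tyk2, and under IFNb from -0.164 to 0.0352 for Ifngr2.

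Whether same-numbered libraries belong together is not stated. The correlations of their deviations from group means were -0.10 to 0.062, and these values cannot tell whether they shared a culture. With the replicate block, 711, 8347, 6075, 8338 and 6816 genes were called between genotypes with vehicle and under IFNb, for the responses of control and Adar-null cells and for their difference, and 0, 6, 5, 6 and 4 of the 10 genes, the same numbers as without it. Depth limits Socs1 and Usp18 with vehicle, at 0 to 14 counts per library.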
